A study of Mus musculus with 10 samples.

Results

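The granins and neuropeptides described here were 10 genes, namely the granins Scg2, Scg3, Scg5, Chga, Chgb and Vgf and the peptide precursors Npy, Sst, Nts and Cck. They were taken by symbol from the 53379 genes of the count files, and all 10 were found. They were selected on their reads in cKO and control libraries in an earlier analysis of the same counts, so their differences between the genotypes are given as descriptions of these libraries and not as tests.

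The libraries came from cortex of mouse embryos at embryonic day 16 (E16). Control embryos (n = 7) were MADM-7 GT/TG;Emx1 Cre/+. Conditional knockouts (cKO, n = 3) carried Emx1 Cre/+ and the GT and TG cassettes of MADM-7, both on chromosomes with the Cdkn1c-flox allele, which thus came from both parents. MADM (mosaic analysis with double markers) labels sparse cells with GFP, tdT or both after Cre acts on chromosome 7, and cells of all 3 colours were sorted together. Emx1-Cre acts in progenitors of the dorsal telencephalon, so all cells of that lineage in a cKO embryo could lose Cdkn1c, not only the labelled ones. The controls carried the same MADM cassettes and Cre without the floxed allele. The strain is given as CD1, the study's methods describe a mixed C57BL/6J and CD1 background, and the sexes were not separated. Each library was made from the sorted cells of 1 embryo by Smart-Seq2, which amplifies polyadenylated RNA from few cells.

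Between 2417184 and 2998916 reads fell on genes in the cKO libraries and between 1738220 and 3362487 in the controls. Cdkn1c, a cyclin-dependent kinase inhibitor and the deleted gene, was lower in cKO by a log2 fold change of -3.66 ± 0.38 (SE; edgeR quasi-likelihood test, adjusted p = 3.68e-06), and all cKO libraries lay below all controls. The share of uniquely aligned reads that fell outside genes split the libraries into a low set of 5.47% to 8.64% (1 cKO and 4 controls) and a high set of 12.8% to 16.7% (2 cKO and 3 controls). Haemoglobin reads were frequent in cKO 1, control 2 and control 5. Markers of the labelled tissue were present: the summed CPM (counts scaled to the same number of reads on genes by edgeR's TMM method) of 9 projection neuron markers ranged from 4219 to 5953 in cKO and from 6684 to 9304 in controls.

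Granins are acidic proteins of dense-core vesicles, the organelles in which neurons and endocrine cells store peptides for regulated release. Peptide precursors are sorted into these vesicles with the granins, cut by prohormone convertases, trimmed by carboxypeptidase E and in part amidated before release, and the peptides act on receptors coupled to G proteins. In the cortex, Npy and Sst are best known from inhibitory interneurons, which arise in the ganglionic eminences and so outside the dorsal lineage in which Emx1-Cre acts. Several granin and peptide genes are textbook targets of cAMP and activity through a cAMP response element (CRE), whose full form is TGACGTCA.

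The promoter windows are shown first because 3 members share this element. RefSeq windows on GRCm38.p6, from 250 bases before to 50 bases after the gene start, were available for 9 of the members. No window was available for Vgf, so its promoter was not searched. Both strands were searched. TGACGTCA was found in 3 of 9 members, against 1.79% of all 32851 windows of that length. Its shorter form TGACGT, which also lies within every full match, was found in 5 of 9 (Scg2, Scg5, Chga, Chgb and Sst), against 7.51% of all windows. The similar sequence TGANTCA, not counted as a CRE, was found in 1 of 9, Nts, against 7.81%. The matches of Scg2, Chgb, Sst and Chga are printed 5′ to 3′ on the gene's strand with the match in capitals, 30 bases each, at chr1:79440076-79440105 (minus), chr2:132781559-132781588 (plus), chr16:23890874-23890903 (minus) and chr12:102554885-102554914 (plus). The Nts stretch, chr10:102490487-102490668 (minus), has 182 bases and holds the TGANTCA match.
Scg2: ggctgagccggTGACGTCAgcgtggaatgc
Chgb: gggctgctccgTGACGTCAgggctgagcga
Sst: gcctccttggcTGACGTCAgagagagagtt
Chga: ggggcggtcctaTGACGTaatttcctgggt
Nts: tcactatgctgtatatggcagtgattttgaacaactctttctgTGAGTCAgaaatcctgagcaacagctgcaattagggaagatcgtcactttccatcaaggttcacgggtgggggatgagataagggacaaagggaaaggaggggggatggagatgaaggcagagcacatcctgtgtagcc
The first base of the match lay 68 bases before the RefSeq start in Scg2, 72 in Chgb, 48 in Sst, 44 in Chga and 207 in Nts. In Scg2, Chgb and Sst the match also lay inside the gene as GENCODE draws it, because GENCODE starts these genes further upstream. Of the 5 members with TGACGT, Scg2 passed the threshold between the genotypes in the values below, and Scg5, Chga, Chgb and Sst did not.

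In the edgeR fit over all genes, 4 of the 10 members had an adjusted p under 0.05, with Scg2, Vgf and Nts higher and Npy lower in the cKO libraries. Of the 11551 genes tested, 3.15% passed in either direction, 2.27% as higher and 0.883% as lower. The other 6 members did not pass. The genotypes did not overlap for 4 of the 10 members (Scg2, Scg3, Vgf and Npy) and for 6.00% of the genes tested. The median log2 fold change of the 10 members was 0.24, beside 0.01 for all genes tested. All 10 passed the filter of a mean of 10 reads, but Vgf did so only through the cKO libraries, with a mean of 10.3 reads over all libraries and 2.43 in controls. In libraries of sorted cells, fewer cells of a type and less RNA per cell cannot be told apart.

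**Figure D1:**
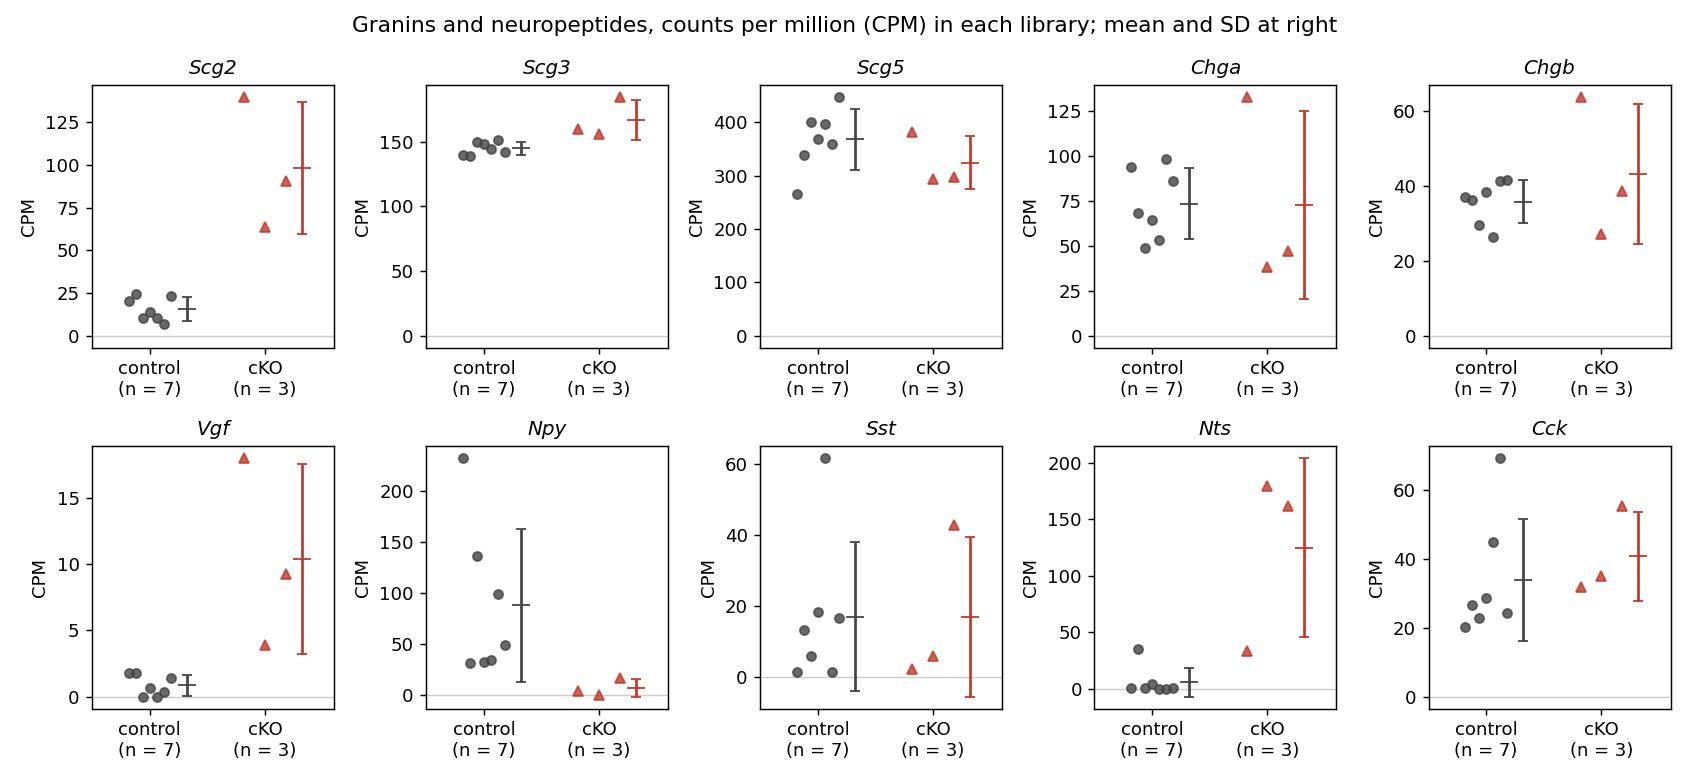
CPM of each member in each library (black circles, 7 controls; red triangles, 3 cKO; horizontal bar and whiskers, mean and SD). Scg2 and Vgf of all 3 cKO libraries lie above all controls and Npy lies below them, whereas for Nts control 2 at 35.0 CPM lies above cKO 1 at 33.8 CPM.

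Scg2 encodes secretogranin II, the precursor of secretoneurin, and lies at chr1:79434669-79440120 on the minus strand. It had 418, 163 and 216 reads in cKO 1 to 3, and 18 to 70 reads in the controls with a median of 43. On the CPM scale these were 140, 63.7 and 90.9 in cKO and 6.78 to 24.8 with a median of 13.8 in controls. All cKO libraries were above all controls, as they were for 3.32% of the genes tested. The means were 98.1 ± 38.6 CPM (SD, n = 3) and 15.7 ± 7.18 CPM (SD, n = 7), and the log2 fold change was 2.64 ± 0.31 (SE). Within the low set of libraries the mean Scg2 level was 90.9 CPM in cKO and 18.9 in controls, and within the high set 102 and 11.5.

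Vgf, at chr5:137026392-137033351 on the plus strand, encodes a neurotrophin-inducible peptide precursor. It had 54, 10 and 22 reads in cKO 1 to 3 and at most 5 reads in any control, with a control median of 2. Controls 3 and 5 had 0 reads, which allows up to 0.876 and 1.73 CPM there. The levels were 18.1, 3.91 and 9.26 CPM in cKO 1 to 3, and the control mean was 0.854 ± 0.795 CPM (SD, n = 7). The genotypes did not overlap, but the lowest cKO library rested on 10 reads. The log2 fold change was 3.56 ± 0.70 (SE).

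Nts encodes neurotensin and lies at chr10:102481756-102490486 on the minus strand. Its reads were 101, 460 and 385 in cKO 1 to 3, and 3, 99, 1, 13, 0, 0 and 3 in controls 1 to 7. Control 2, a library with many haemoglobin reads, stood apart from the other controls and reached the lowest cKO library, so the genotypes overlapped. The 0 reads of controls 5 and 6 allow up to 1.73 and 1.07 CPM. The means were 125 ± 79.6 CPM (SD, n = 3) and 5.95 ± 12.9 CPM (SD, n = 7). The log2 fold change was 4.33 ± 0.79 (SE), and without control 2 it was 6.63. DESeq2's Wald test gave Nts an adjusted p of 0.144, which does not pass.

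Npy, at chr6:49822710-49829507 on the plus strand, encodes neuropeptide Y. It had 13, 2 and 41 reads in cKO 1 to 3 and 60 to 645 reads in the controls with a median of 139. The levels were 4.35, 0.78 and 17.2 CPM in cKO, below the 31.5 to 232 CPM of the controls. All cKO libraries were below all controls, as they were for 2.68% of the genes tested. The controls themselves spread widely, with a coefficient of variation of 85.5%. The log2 fold change was -3.64 ± 1.02 (SE). Npy no longer passed without cKO 1 (log2 fold change -3.34, adjusted p = 0.0822) or without cKO 2 (-3.12, adjusted p = 0.0591). The size of the change moved most without cKO 3, to -5.02 (adjusted p = 0.0370).

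The remaining granins did not pass. Scg3, a granin that helps to sort cargo to dense-core vesicles, had 160, 156 and 185 CPM in cKO 1 to 3 and 139 to 152 CPM in controls. The cKO libraries were all above the controls by a small margin, the log2 fold change was 0.20 ± 0.13 (SE), and the gene did not pass. Its coefficient of variation over the controls, 3.51%, was the lowest of the 10 members. Scg5 encodes 7B2, the chaperone of prohormone convertase 2, and had 324 ± 49.8 CPM in cKO and 368 ± 57.0 CPM in controls (SD).

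Chga and Chgb encode chromogranins A and B. Chga had 397 reads in cKO 1 but 98 and 112 in cKO 2 and 3, beside 92 to 276 in controls. In CPM, cKO 1 (133) was above every control while cKO 2 (38.3) and cKO 3 (47.1) were below the lowest control (49.0). The log2 fold change was 0.01 ± 0.32 (SE) with all libraries and -0.79 without cKO 1, with an adjusted p of 0.167 in the latter. Chgb showed the same order of the cKO libraries, at 63.9, 27.3 and 38.7 CPM, beside 26.6 to 41.6 CPM in controls. Its log2 fold change was 0.28 ± 0.25 (SE) and -0.14 without cKO 1. Scg2 and Vgf were also highest in cKO 1, the cKO library with many haemoglobin reads. Whether this library sets those values was not tested beyond leaving it out, where Scg2 still passed and Vgf fell under the filter on reads, as it also did without cKO 3.

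Sst and Cck overlapped between the genotypes. Sst, which encodes somatostatin, had 2.34, 5.86 and 42.9 CPM in cKO 1 to 3 and 1.43 to 61.8 CPM with a median of 13.4 in controls. Both genotypes held libraries with under 20 reads and a library with over 100, and the log2 fold change was 0.12 ± 0.81 (SE). Single libraries set this value, which was -1.88 without cKO 3 and 0.73 without control 5. Cck, which encodes cholecystokinin, had 31.8, 35.2 and 55.5 CPM in cKO and 20.1 to 69.5 CPM in controls. Its log2 fold change was 0.28 ± 0.34 (SE), and it was 0.0086 without cKO 3 and 0.58 without control 6.

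**Figure D2:**
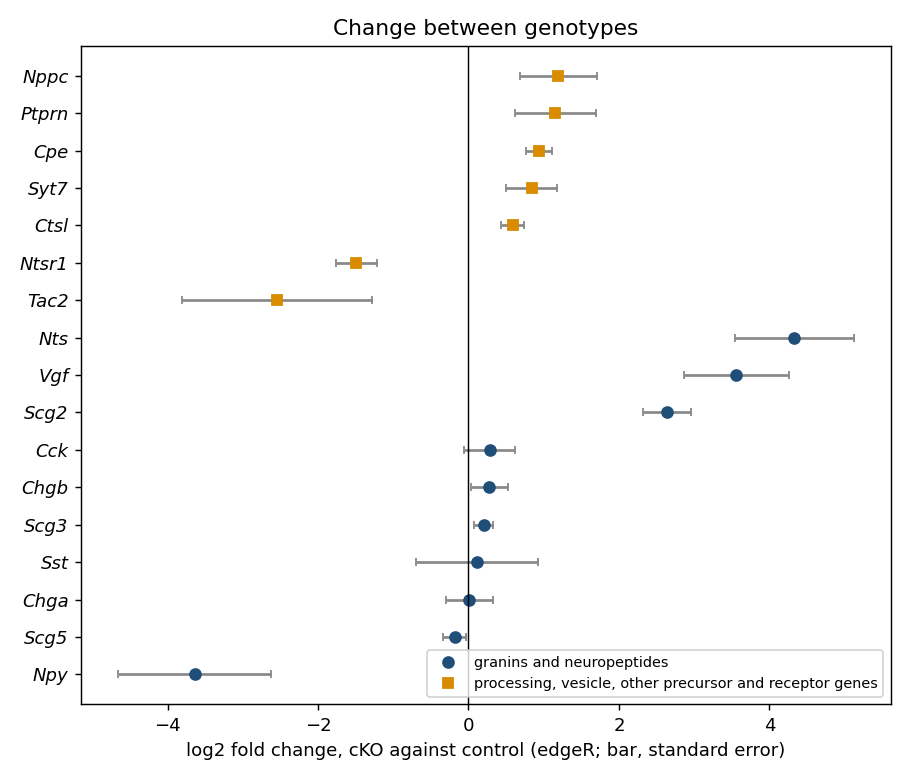
Log2 fold change of cKO against control with its standard error from edgeR, for the 10 members (blue circles) and the named genes of the processing, vesicle, precursor and receptor lists (orange squares). Nts (4.33), Vgf (3.56) and Scg2 (2.64) lie to the right and Npy (-3.64) to the left, and the other 6 members lie between -0.18 and 0.28.

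The members were also ordered by level within the controls, which does not use the genotypes. Levels between genes were compared per length, as RPKM (TMM-scaled CPM per kilobase of exons). The order of the mean control level was Scg5 (235 RPKM), Npy (155), Scg3 (52.9), Chga (26.6), Cck (25.9), Sst (23.6), Chgb (13.1), Scg2 (6.25), Nts (4.77) and Vgf (0.287). Of the 9 neighbouring pairs, 3 differed beyond the spread between the 7 libraries by an exact two-sided sign-flip permutation test: Npy above Scg3, Scg3 above Chga and Chgb above Scg2. Each was higher in 7 of 7 libraries, with an exact p = 0.0156, the smallest the test can give, and an adjusted p of 0.0469. The other 6 pairs did not differ beyond their spread, Scg5 and Npy among them. With any 1 library left out, 0 of the 9 pairs passed after adjustment. Fewer libraries raise the smallest p the test can give, so this cannot decide whether the differences rest on single libraries. In the cKO libraries the mean levels were 207 RPKM for Scg5, 100.3 for Nts, 60.9 for Scg3, 39.0 for Scg2, 31.3 for Cck, 26.4 for Chga, 23.6 for Sst, 15.8 for Chgb, 13.2 for Npy and 3.50 for Vgf. By its mean Nts stood second in cKO and ninth in controls, but single libraries differed, since it held place 5 in cKO 1 and place 4 in control 2. Npy stood in places 1 to 3 in every control and in places 7 to 9 in every cKO library.

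**Figure D3:**
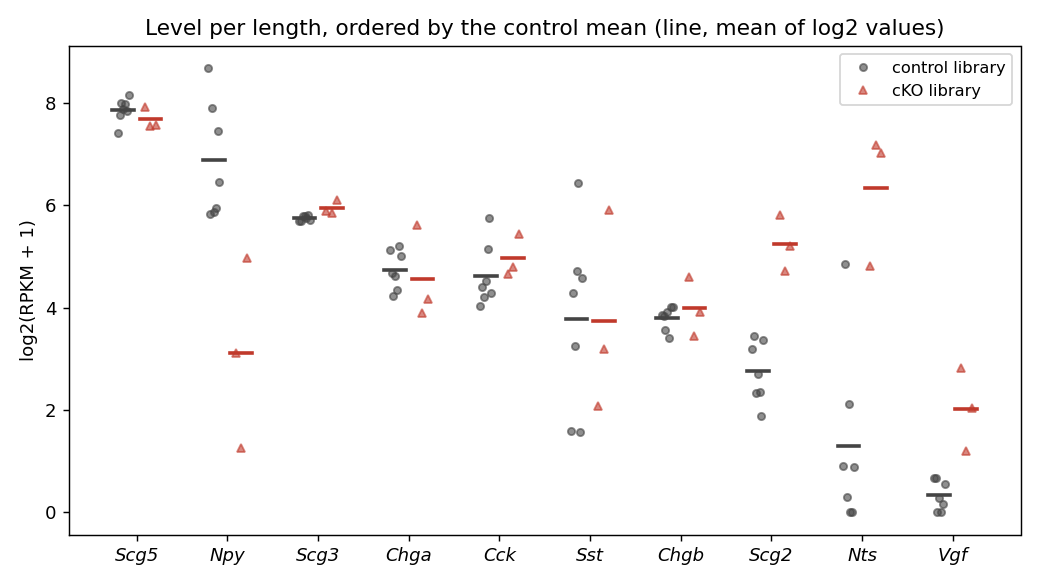
Level per length on the log2(RPKM + 1) scale for each library (black circles, controls; red triangles, cKO; lines, means of the log2 values), with members ordered by mean control RPKM. The means of Scg5, Scg3, Chga, Cck, Sst and Chgb are close in both genotypes, whereas Npy is lower and Scg2, Nts and Vgf are higher in cKO, and the cKO libraries of Chga (48.2, 13.9 and 17.1 RPKM) spread to both sides of the controls.

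The enzymes that process the precursors, with the convertase inhibitor Pcsk1n, were examined as single genes in the same fit. This list and the lists of vesicle, precursor and receptor genes below were chosen with earlier results of these data known. Of 12 genes listed, 10 were tested, and 2 rose and 0 fell, with a median log2 fold change of 0.24. Carboxypeptidase E (Cpe), which removes basic residues from cut peptides, had 658, 325 and 473 CPM in cKO 1 to 3 and 219 to 307 CPM in controls. All cKO libraries were above all controls, and Cpe rose by a log2 fold change of 0.94 ± 0.17 (SE; edgeR adjusted p = 0.00388). Cathepsin L (Ctsl), a lysosomal protease that also acts in secretory vesicles, had 144, 111 and 156 CPM in cKO and 79.7 to 105 CPM in controls, and rose by 0.59 ± 0.15 (SE; edgeR adjusted p = 0.0418). Ctsl lost its call when any of 8 of the 10 libraries was left out, at log2 fold changes of 0.49 to 0.60 in those fits. The call of Cpe was lost when the 3 libraries with haemoglobin reads were left out (adjusted p = 0.0916), an alternative chosen after the data were seen. Over all alternatives, this one included, the log2 fold change of Cpe was 0.61 to 1.16. By edgeR, 4 of the 10 genes tested in this list had an unadjusted p under 0.05, beside 16.4% of all genes tested. The additional pair were Qpct, which forms pyroglutamate at peptide ends (log2 fold change 1.39 ± 0.39, SE; edgeR adjusted p = 0.0656), and Pcsk1n, the precursor proSAAS (1.22 ± 0.39, SE; edgeR adjusted p = 0.0969). Pcsk1n had 1558, 215 and 295 reads in cKO 1 to 3 and 142 to 440 in controls, and without cKO 1 its log2 fold change was -0.02 (adjusted p = 0.980). Both were named after their values were seen.

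Of 15 genes of dense-core vesicles, 12 were tested and 0 passed by edgeR or DESeq2. By edgeR, 2 of these 12 had an unadjusted p under 0.05, as did 16.4% of all genes tested. Their median log2 fold change was -0.12. The pair with the smallest p were Syt7, a calcium sensor of vesicle fusion (0.84, adjusted p = 0.212), and Ptprn, a membrane protein of the vesicles (1.15, adjusted p = 0.300). Of 27 other neuropeptide precursors, 7 were tested and 0 passed by edgeR or DESeq2. By edgeR, 2 of these 7 had an unadjusted p under 0.05, beside the same 16.4% of all genes, and the median log2 fold change was 0.03. Of these 7, 1 passed the filter only through the cKO libraries, with a mean of 7.57 reads in controls. Tac2, the precursor of neurokinin B, had a log2 fold change of -2.54 (adjusted p = 0.194), and Nppc, the precursor of C-type natriuretic peptide, one of 1.19 (adjusted p = 0.248). With 1 library left out, these ranged from -2.77 to -2.04 for Tac2 and from 0.72 to 1.56 for Nppc. The other 20 precursors were under the filter on reads and were not compared, and 6 of them had no read in any library.

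Of 13 receptors of the member peptides, 5 were tested, and 1 fell. The median log2 fold change of these 5 was -0.55, and by edgeR 3 of them had an unadjusted p under 0.05, beside the same 16.4% of all genes. The receptor that fell was Ntsr1, a neurotensin receptor known as a marker of deep-layer cortical projection neurons. Ntsr1 had 31.8, 26.6 and 19.4 CPM in cKO 1 to 3 and 54.0 to 104 CPM in controls, so the genotypes did not overlap. It fell by a log2 fold change of -1.49 ± 0.28 (SE; edgeR adjusted p = 0.00388), and it passed with each library left out in turn. The somatostatin receptor Sstr2 had a log2 fold change of -0.55 ± 0.16 (SE; edgeR adjusted p = 0.0824), with all cKO libraries below all controls, and the neuropeptide Y receptor Npy1r one of -1.44 ± 0.53 (SE; edgeR adjusted p = 0.127). Single libraries moved the Npy1r value, which was -0.94 without cKO 1 and -2.19 without cKO 3. Of the other neurotensin receptors, Ntsr2 was under the filter, with 8 to 18 reads in cKO and 0 to 15 in controls, which overlap, and Sort1 had a log2 fold change of -0.08 ± 0.28 (SE) and did not pass. The gastrin and cholecystokinin receptor Cckbr was also under the filter, with 6, 1 and 7 reads in cKO 1 to 3 and 0 in every control. Sstr2, Npy1r, Ntsr2, Sort1 and Cckbr were named here after their values were seen.

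**Figure D4:**
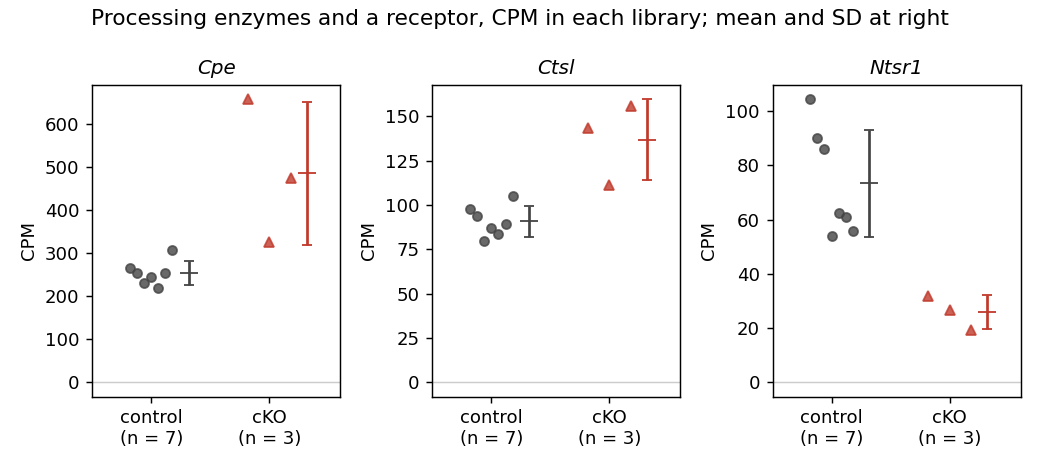
CPM of Cpe, Ctsl and Ntsr1 in each library (black circles, 7 controls; red triangles, 3 cKO; horizontal bar and whiskers, mean and SD). All 3 cKO libraries lie above the controls for Cpe and Ctsl and below them for Ntsr1.

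Markers of other cell types moved between the genotypes beside the members. Of all genes tested, 2.27% passed as higher, 0.883% passed as lower and 51.3% had a log2 fold change above 0. Of 9 Cajal-Retzius markers, 8 were tested and 8 rose, but Lhx1 and Car10 passed the filter on reads only through the cKO libraries, with means of 3.29 and 5.43 reads in controls. They summed to 660 to 897 CPM in the cKO libraries and to 26.3 to 237 CPM in the controls, and none of them was at 0 in the mean of either genotype. Reln, which encodes reelin, had 294 ± 60.4 CPM in cKO and 43.6 ± 30.6 CPM in controls (SD). Of 12 interneuron markers, 8 were tested, all with a log2 fold change above 0 (median 1.03), and 1, Dlx2, rose. Gad1 and Lhx6 among them averaged under 10 reads in controls. The list had a summed level of 71.9 to 135 CPM in cKO and 31.0 to 86.0 CPM in controls. Slc32a1, the vesicular GABA transporter, was near 0 in both genotypes. Of 7 subplate markers, 4 were tested and 1, Tmem163, rose (log2 fold change 2.19, edgeR adjusted p = 0.000261). Radial glia, intermediate progenitor and blood markers had no call, and no endothelial or microglial marker was tested. Summed microglial markers reached 32.8 CPM in cKO 3 and at most 4.64 CPM in a control, and endothelial markers 17.97 CPM in cKO 2 and at most 2.89 CPM in a control. Of 9 projection neuron markers, 3 fell, Neurod2 and Neurod6 among them, and 3 had a log2 fold change above 0. Of 13 immediate early genes, 12 were tested and 5 rose (Fos, Fosb, Egr1, Npas4 and Dusp1), with a summed level of 1494 to 2549 CPM in cKO and 819 to 1402 CPM in controls. Arc among the 12 passed the filter only through the cKO libraries, with a mean of 6.29 reads in controls.

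In an exact two-sided permutation test over the libraries, the summed Cajal-Retzius, projection neuron and immediate early levels each gave p = 0.017, the smallest the design allows, and 0.0556 after adjustment over 10 lists. None of the 10 lists passed, and 4 had an unadjusted p under 0.05, the fourth being the interneuron list (exact p = 0.033, adjusted p = 0.0833). The lists were chosen with earlier results of these data known, so these p-values only describe these libraries. Among the cKO libraries, cKO 2 had the highest Nts (179.7 CPM) and the lowest Cajal-Retzius and immediate early sums (660 and 1494 CPM), and cKO 1 the lowest Nts (33.8 CPM) and the highest immediate early sum (2549 CPM). Among the controls, control 2 had the highest Nts (35.0 CPM) and the highest Cajal-Retzius sum (237 CPM), and control 4 was next in both (4.18 and 200.3 CPM). The part of these cell types and of the immediate early genes in the differences of the members between the genotypes was not tested.

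**Figure D5:**
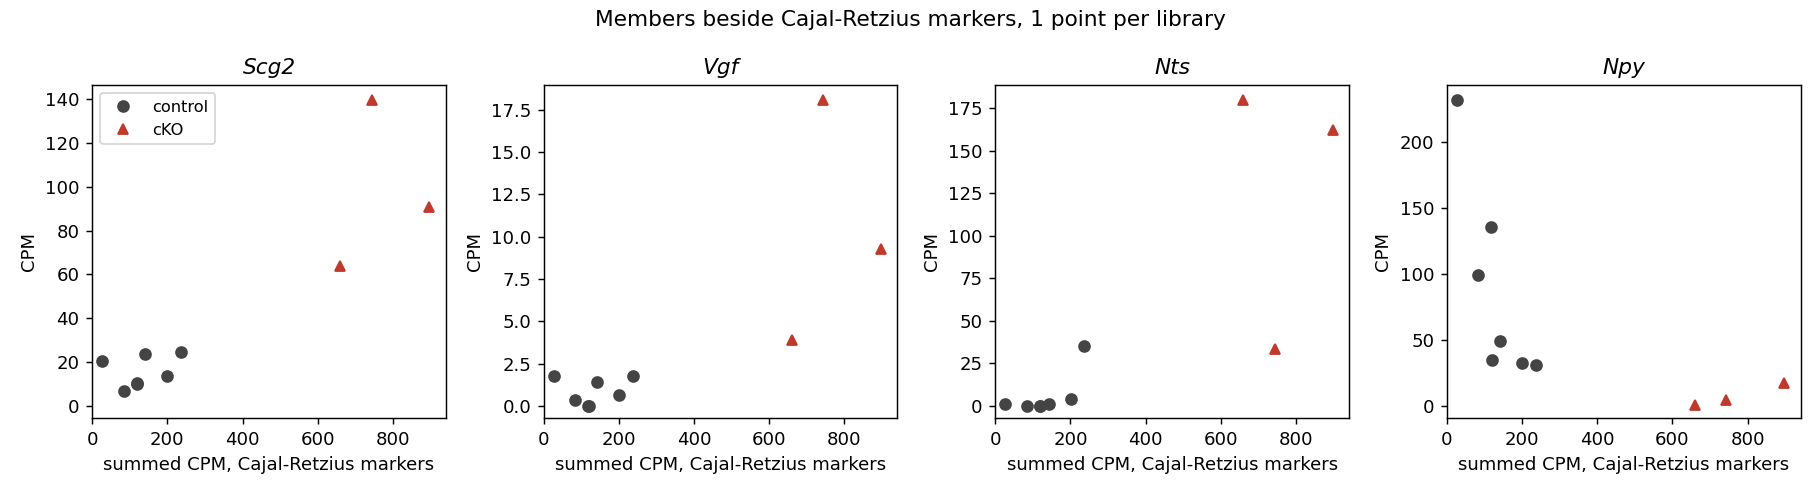
CPM of Scg2, Vgf, Nts and Npy (vertical axes) against the summed CPM of 9 Cajal-Retzius markers (horizontal axes), with 1 point per library (black circles, controls; red triangles, cKO). The cKO libraries lie at 660 to 897 CPM of the markers and the controls at 26.3 to 237 CPM, with no library between.

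Within the 7 controls, each member was set against the summed interneuron markers and the summed immediate early genes, 20 relations in all. None passed after adjustment, and 1 had an unadjusted p under 0.05 for Pearson's r and 2 for Spearman's rho, by an exact permutation test of Pearson's r or Spearman's rho. The strongest was Chgb against the interneuron markers, with r = -0.92 (p = 0.00357, adjusted p = 0.0714) and rho = -0.86 (p = 0.0238, adjusted p = 0.341) over n = 7 in the exact test. Without the 2 libraries farthest from the median of the markers, r was -0.70. The other Spearman value was Cck against the immediate early genes, with rho = -0.82 (exact p = 0.0341, adjusted p = 0.341) and r = -0.56 (exact p = 0.175, adjusted p = 0.531), and r was -0.26 without the 2 farthest libraries. Among the members themselves, as a description over the same 7 libraries, log2 CPM of Scg2 and Vgf had r = 0.85, Chga and Chgb 0.83, Npy and Sst -0.83, and Scg2 and Scg3 -0.89. The members of such a pair share their library and its depth.

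Over all 10 libraries, the genes whose log2 CPM was most like that of Nts were Vegfa (r = 0.97), Isoc1 (0.95) and Prune2 (0.93). Myc and Cyp51 were among those most like Npy, both at r = 0.95. Those most like Vgf were Gabrg3, Scg2 and Bcat2, all at r = 0.97. These correlations include both genotypes and are descriptions.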

How the data were processed

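RNA-seq was analysed for 10 libraries, 3 cKO and 7 control. The authors merged technical replicates, aligned reads with STAR 2.5.0c to GRCm38, kept uniquely aligned reads and counted them per GENCODE M16 gene; the deposited values are raw counts. Smart-Seq2 carries no strand, so the unstranded column was used. For each member it equalled the sum of both strand-specific columns in all 10 libraries.

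Genes averaging 10 or more reads were tested with edgeR 4.0.16 (R 4.3.3; TMM, quasi-likelihood test, genotype alone), with Benjamini-Hochberg adjustment and a threshold of 0.05. The script was tested on simulated data. The files have no molecular identifiers, so limits of a count of 0 (3 reads) cover counting error only. RPKM used exon lengths from the same genome build. The named genes outside the members were those of each list past the threshold, or else the 2 with the smallest p, and for likeness the 3 genes with the highest r for the 3 members of largest change; genes outside this rule are marked in the text. The members and all lists were chosen with earlier results of these data known. Embryos are separate animals. Same-numbered libraries did not deviate together (correlations of 0.041, -0.10 and -0.21), so numbers do not pair them. Alternatives were DESeq2 1.42.0, RLE scaling, other filters, the summed strand-specific counts, a covariate for reads outside genes, a replicate block and each library left out. Promoters came from RefSeq. No other samples were used. Some genes that the naming rule or a marker list would name are not reported here.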

Additional observations from a re-analysis of the deposited data

Results flagged for a closer look

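In 7 control libraries, 2 of 27 sets of values held a library far from the others by Dixon's criterion, and chance flags about 1 in 20 such sets. Sst had 61.8 CPM in control 5, and the next control had 18.3 CPM. Nts had 35.0 CPM in control 2, and the next control had 4.18 CPM. Both libraries were among the 3 with many haemoglobin reads, and the part of these reads was not tested.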

How the results depend on the processing

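Scg2 kept its direction and call under all 18 alternatives, and no called result reversed. As reported, edgeR called 364 genes (262 higher, 102 lower). Testing every gene with a read called 961 (701 higher, 260 lower), requiring 10 reads in each library 209 (137 higher), and DESeq2 210 lower genes. The replicate block called 213 (141 higher) and left 1 processing enzyme, Cpe. Of the members, 4 were called, 1 (Scg2) with 10 reads in each library, where fewer genes were tested, and 2 to 4 with a library left out, the 2 without cKO 1. Processing genes gave 1 to 3 calls with a library left out and 0 without the 3 libraries with haemoglobin reads. Receptors gave 1 to 2 with a library left out, 2 by DESeq2 (Ntsr1 and Sstr2) and 4 with every gene (Ntsr1, Cckbr, Npy1r and Ntsr2). Other precursors gave 3 with every gene (Tac1, Tac2 and Trh, the last with 19 reads in cKO 1 and 0 in all other libraries). Neighbours that differed in the controls fell from 3 to 0 with any 1 library left out, where fewer libraries raise the smallest p. The cause of the other changes was not tested. Low counts limited Vgf, which fell under the filter without cKO 1 or cKO 3, and 20 of the 27 other precursors were not tested for the same reason.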
